A study of Mus musculus with 24 samples.

Results

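RNA on the ribosomes of serotonin cells was compared with total RNA of the same brain region in mice that lack Celf6, gene by gene. The comparison used 10 of the 24 libraries of the series: KO TRAP 1 to 5 and KO input 1 to 5, taken by their titles, without the repeat runs of number 3. All 10 carry the genotype celf6 knockout in the labels and come from brains taken at postnatal day 9, from tissue just behind the thalamus with the cortex removed. Input is total RNA. TRAP (translating ribosome affinity purification) is RNA pulled down on tagged ribosomes that a TRAP allele puts into serotonin cells, so each KO brain carried that allele as well as the knockout. The strain field of the labels was not filled in, and the labels name neither the promoter that drives the TRAP allele nor the part of Celf6 that is deleted. The series notes give 5 KO and 5 wild-type (WT) brains, so each KO brain gave both kinds of RNA, and equal numbers are read here as 1 brain. The WT libraries entered only where the TRAP to input difference was compared between genotypes.

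Serotonin neurons of the hindbrain raphe nuclei make serotonin from tryptophan in a pair of steps, hydroxylation by tryptophan hydroxylase and decarboxylation, and the first step needs the cofactor tetrahydrobiopterin. A vesicular transporter loads the product into vesicles, a plasma membrane transporter takes it back up, and monoamine oxidases break it down. A set of transcription factors, among them the ETS factor Fev (also called Pet1), Lmx1b and the GATA factors, switches these genes on and keeps them on. CELF6 belongs to the CELF family of RNA-binding proteins, which act on splicing and on the stability of messenger RNA. In TRAP, messages of the tagged cells are enriched over those of other cells, which remain as background, and messages of the other cells of the tissue are depleted.

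The serotonin genes that were higher in TRAP are described first, with promoter sequence for 4 of them because one short motif recurred there. Of the 14 such genes, 13 had a window in the RefSeq promoter table (GRCm38.p6, 250 bases before to 50 bases after the start). The hexamer AGATAA, a form of the sequence that GATA factors bind, was searched on both strands (TTATCT on the other). It lay in the windows of 4 of these 13 genes (30.8%), of 16.7% of the higher and 15.2% of the lower genes with a window, of 7.17% of the 9295 genes tested that had one, and of 11.2% of all 32851 windows. The hexamer CCGGAA, a core of ETS factor sites (TTCCGG on the other strand), lay in 2 of the 13 (15.4%) and in 30.5% of the genes tested. These are matches of letters in a fixed window and were not tested as binding sites. The stretches below run 5′ to 3′ along the gene's own strand, with the hexamer in capitals.
Fev: attgcgatgggaAGATAAgaggggcggggg
Tph2: catcaggagcacAGATAAccccaagcttca
Slc18a2: ccttggccttgaTTATCTtcaggacctttg
Pcbd1: tgtatgtgacatTTATCTgggtggcttttg
The stretch of Fev is chr1:74885509-74885538 (minus strand) and that of Tph2 is chr10:115185133-115185162 (minus strand). The stretch of Slc18a2 is chr19:59260636-59260665 (plus strand) and that of Pcbd1 is chr10:61089101-61089130 (plus strand).

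Celf6 itself was still read in every KO library. On the scale of all libraries it stood at 51.3 ± 38.1 CPM (read counts scaled to the size of the library; mean ± SD, n = 5) in KO TRAP against 142 ± 41.5 in WT TRAP (n = 5), and at 15.2 ± 6.37 in KO input (n = 5) against 51.0 ± 47.2 in WT input (n = 3). The WT input library numbered 2/3 stood at 15.4 CPM, inside the KO input range of 4.79 to 22. The highest KO value was 115 CPM in the library labelled KO TRAP 1, inside the WT TRAP range of 85.3 to 188. That library also held both Xist, the RNA of the inactive X chromosome of females, at 71.3 CPM, and Y-linked RNA (Kdm5d 17.4, Uty 6.36 and Ddx3y 4.49 CPM), while KO input 1 held Xist at 104 CPM and at most 0.169 CPM of these 3 Y-linked genes. The pairs 2 and 4 held Y-linked RNA and 3 and 5 held Xist in both kinds of RNA. Among the WT libraries used for the genotype test, WT TRAP 5 held Xist at 0.475 and Uty at 27.1 CPM, while WT input 5 held Xist at 37.1 CPM with Uty at 1.51 CPM. Counts per library ran from 3405285 to 6521489, with 13788 to 15815 of 24062 genes seen. The correlation of log2 CPM was 0.773 to 0.845 within KO TRAP, 0.792 to 0.841 within KO input and 0.725 to 0.831 between them, against 0.989 to 0.993 for repeat runs of 1 library. In data simulated at these depths, 12.2%, 44.4%, 76.6% and 93.8% of genes changed 2-, 4-, 8- and 16-fold passed the threshold used here.

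TRAP and input of the KO mice differed at 124 of 12273 genes tested (1.01%), with 79 higher in TRAP (0.644%) and 45 lower (0.367%). Past the threshold, here and below, means a Benjamini-Hochberg adjusted p under 0.05 in edgeR's quasi-likelihood test over all genes tested, with the sequencing run as covariate, and only such genes are said to be higher or lower. Of the 79 higher genes, 45 were over 4-fold and 14 over 16-fold higher. Of the 45 lower genes, 21 were over 4-fold and 6 over 16-fold lower. All 5 TRAP libraries stood above all 5 input libraries for 73 of the 79, and below them for 41 of the 45. Over all genes tested, 219 (1.78%) were separated upward and 232 (1.89%) downward. An unadjusted p under 0.05, in either direction, was found for 1543 of the 12273 genes (12.6%). DESeq2, without the expression filter, called 595 of 18833 genes. The counts given below for gene lists are to be read beside these. Each of the 124 genes had the same sign in both sequencing runs.

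**Figure D1:**
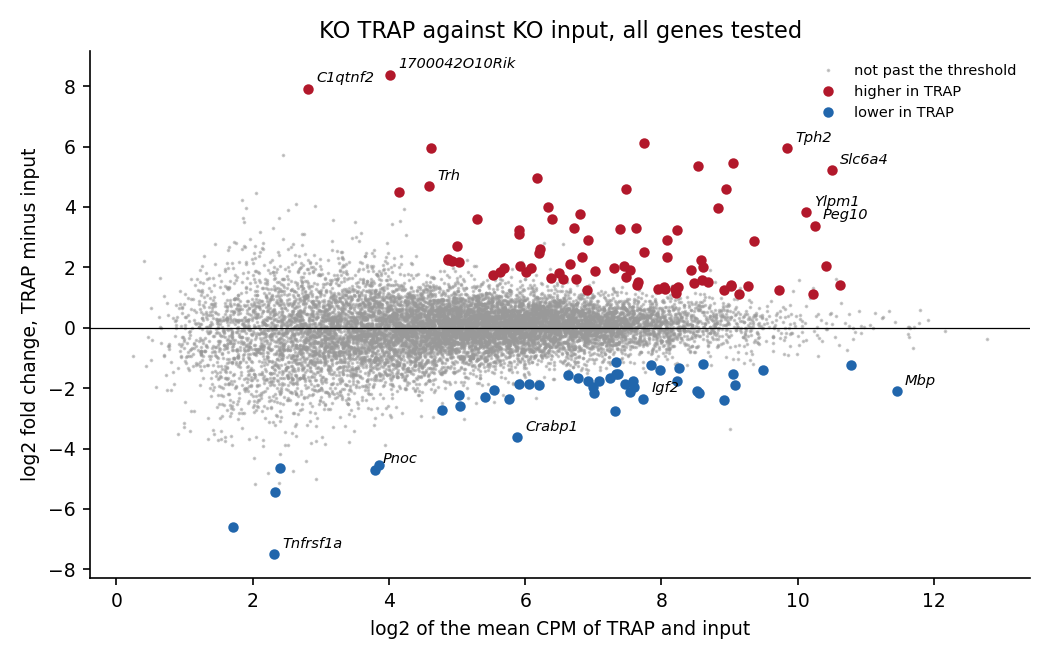
Log2 fold change of KO TRAP minus KO input (y) against log2 of the mean CPM of TRAP and input (x) for all genes tested. Each point is a gene, red for the 79 higher and blue for the 45 lower in TRAP. Tph2 and Slc6a4 combine a large fold change with a high level, and Mbp has the highest level among the lower genes.

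Calls in both directions differed in how firmly they stood. With the replicate number as a block, 84 genes were higher and 68 lower. Under upper-quartile scaling the split was 69 higher and 58 lower, and under total counts 67 and 58. Leaving out 1 library at a time gave 57 to 99 higher and 22 to 90 lower genes. The lower count fell to 24 without KO input 1, 29 without KO input 3, 22 without KO TRAP 4, 29 without KO input 4, 23 without KO TRAP 5 and 25 without KO input 5, and rose to 90 without KO TRAP 3. Without the library labelled KO TRAP 1, 76 genes were higher and 52 lower, among them 69 of the 79 and 38 of the 45. Of the genes named below, Pcbd1, En1, Chgb, Grb10, Glul, Gfap, Elavl3, Foxr2 and Rest lost the call without it. Passing in all 10 of these reduced comparisons were 67 genes, 51 higher and 16 lower.

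Most genes of serotonin synthesis and of its cofactor were higher in TRAP. Of 9 genes tested in the list of synthesis and cofactor enzymes, 5 were higher and 0 lower, with a median log2 fold change of 1.82 against 0.02 over all genes tested. Tph2, the tryptophan hydroxylase of neurons and rate-limiting step of the pathway (chr10:115078641-115185022), stood at 2543, 689, 1372, 2445 and 2026 CPM in KO TRAP 1 to 5 and at 57.3, 17.4, 31.1, 16.9 and 24.6 CPM in KO input 1 to 5. The lowest TRAP library, number 2, was still over 10 times the highest input library. The log2 fold change was 5.95 (SE 0.45, adjusted p = 1.73e-07), a 61.9-fold difference. Ddc, the decarboxylase that completes the synthesis, stood at 1187, 879, 865, 1094 and 719 CPM in TRAP and at 55.3, 29.2, 70.4, 28.4 and 24.6 CPM in input. Its groups did not overlap, and the log2 fold change was 4.58 (SE 0.33, adjusted p = 1.03e-07).

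Gch1, which makes the first step of tetrahydrobiopterin synthesis, had the largest fold change of the list. It stood at 687, 188, 365, 485 and 383 CPM in TRAP and at 7.66, 1.92, 5.76, 6.20 and 9.56 CPM in input (log2 fold change 6.12, SE 0.46, adjusted p = 1.60e-07). Number 2 was the lowest in both kinds of RNA. Gchfr, the feedback regulator that binds the Gch1 enzyme, stood at 1079, 1697, 840, 831 and 738 CPM in TRAP and at 29.8, 7.96, 13.2, 33.4 and 40.3 CPM in input (log2 fold change 5.46, SE 0.45, adjusted p = 4.96e-07). Here number 2 was the highest in TRAP and the lowest in input. Pcbd1, which regenerates the cofactor, was higher by a smaller amount, at 78.9 to 200 CPM (median 136) in TRAP and 14.1 to 64.6 CPM in input (log2 fold change 1.82, SE 0.40, adjusted p = 0.0282). Its call was lost without the library labelled KO TRAP 1 (adjusted p = 0.0674) and without KO input 1, KO input 3, KO TRAP 4 (adjusted p = 0.122) or KO input 4.

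Other cofactor enzymes did not pass the threshold. Pts and Spr, which complete the synthesis of the cofactor, had log2 fold changes of 0.63 (SE 0.40, adjusted p = 0.547) and 0.89 (SE 0.80, adjusted p = 0.711). Qdpr, which recycles it, had 0.87 (SE 0.35, adjusted p = 0.312), with TRAP above input in all 5 pairs of equal number. Tph1, the tryptophan hydroxylase of the gut and the pineal gland, was too low to be tested.

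Genes for transport, storage and breakdown of monoamines were mostly higher, at 5 of 7 tested with 0 lower and a median log2 fold change of 3.25. Over the same 7 genes the median was 3.03 without KO TRAP 1, and over all members tested there, a larger number, 2.28. In the fit of KO and WT libraries together these KO medians were 3.26 and 1.59. Slc6a4, the serotonin transporter of the plasma membrane (chr11:76998597-77032343), had the smallest p of all genes. It stood at 3632, 2376, 2273, 2784 and 2997 CPM in TRAP and at 37.7, 47.8, 95.8, 106 and 106 CPM in input. TRAP varied little between libraries (2812 ± 545 CPM, SD, n = 5) and lay far above input (78.6 ± 33.2), with a log2 fold change of 5.22 (SE 0.33, adjusted p = 2.66e-08). Slc18a2, the vesicular monoamine transporter of neurons, stood at 284, 149, 383, 401 and 491 CPM in TRAP and at 8.83, 18.6, 27.5, 10 and 6.95 CPM in input (log2 fold change 4.58, SE 0.45, adjusted p = 7.16e-06). The groups did not overlap. Slc22a3, a low-affinity organic cation transporter that takes up monoamines, stood at 286, 70.8, 72.1, 137 and 135 CPM in TRAP and at 0.666, 10.8, 5.76, 2.86 and 3.19 CPM in input (log2 fold change 4.95, SE 0.62, adjusted p = 0.000122).

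Both monoamine oxidases, which lie 21468 bases apart on the X chromosome, passed but by different amounts. Maob stood at 136, 51.6, 64.8, 142 and 152 CPM in TRAP and at 18.3, 8.85, 7.89, 2.15 and 17.7 CPM in input (log2 fold change 3.25, SE 0.53, adjusted p = 0.00217). Maoa stood at 301, 299, 173, 370 and 348 CPM in TRAP and at 141, 105, 119, 64.1 and 94.1 CPM in input (log2 fold change 1.52, SE 0.30, adjusted p = 0.0129). For Maoa, TRAP 3 came close to the highest input library, and the call was lost without KO input 4 (adjusted p = 0.0756) or KO input 5. The plasma membrane monoamine transporter Slc29a4 (log2 fold change 0.27, SE 0.48, adjusted p = 0.880) and the aldehyde dehydrogenase Aldh2 (−1.14, SE 0.64, adjusted p = 0.484) did not pass, and Slc29a4 changed sign between the runs.

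**Figure D2:**
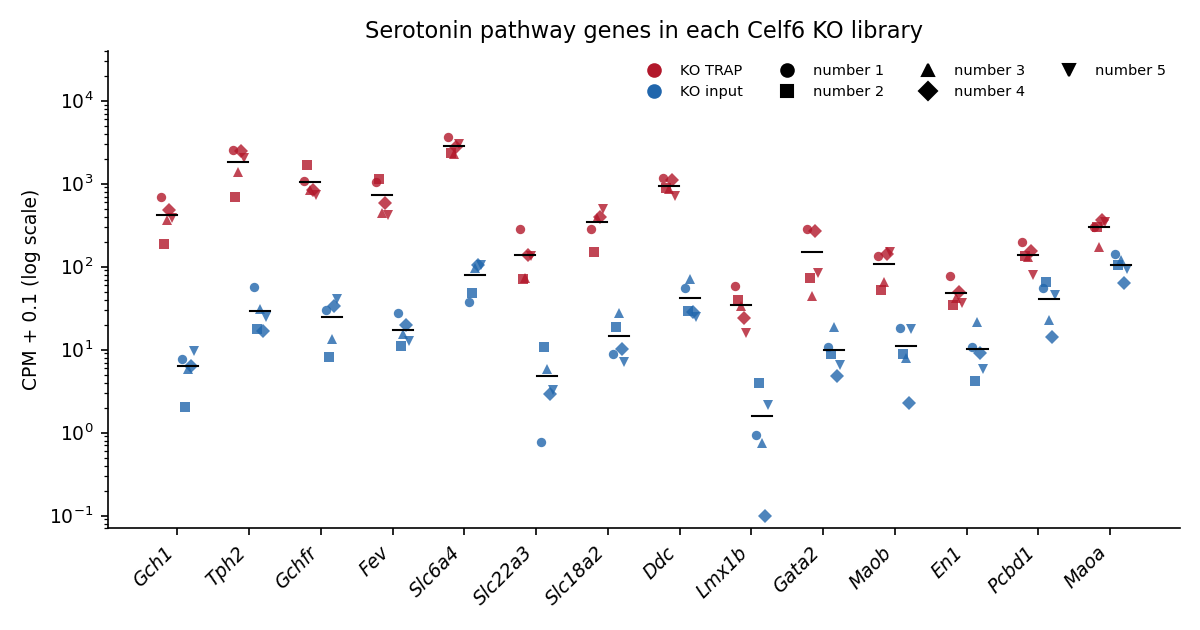
CPM plus 0.1 on a log axis (y) of the 14 serotonin synthesis, transport and transcription factor genes that were higher in TRAP (x), 1 point per KO library, red for TRAP and blue for input, with the mark giving the library's number and a bar at the mean. Red lies above blue for every gene, with the gap narrowest for Maoa and Pcbd1.

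Per length of exon, Gchfr was the most abundant of these messages in TRAP. Its mean was 1649 RPKM (CPM per kilobase of exon), rank 5 of the genes tested, against 39.6 RPKM and rank 1935 in input. Slc6a4 ranked 20 in TRAP (1024 RPKM) and 2674 in input (28.6 RPKM). Tph2 ranked 41 in TRAP (691 RPKM) and 5813 in input (11.2 RPKM), Fev 67 and 5697, and Ddc 74 and 3759. The summed CPM of all 10 listed synthesis genes, tested or not, ran from 3760 to 5934 in TRAP and from 209 to 418 in input. That of all 10 listed transport genes ran from 2983 to 4744 in TRAP and from 251 to 413 in input. In RNA of a tissue, fewer cells of a type and less RNA per cell cannot be told apart, and this holds for every input value here.

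Of the transcription factors tied to serotonergic identity, 4 of 11 tested were higher and 0 lower, with a median log2 fold change of 1.61. Fev, the factor specific to serotonin neurons in the brain (chr1:74881509-74885408), stood at 1058, 1151, 441, 578 and 418 CPM in TRAP and at 27.3, 10.9, 15.4, 19.5 and 12.7 CPM in input. The lowest TRAP library was over 10 times the highest input library, and the log2 fold change was 5.36 (SE 0.39, adjusted p = 1.03e-07). Lmx1b, a LIM homeodomain factor, stood at 57.7, 40, 33.4, 23.9 and 15.6 CPM in TRAP and at 0.833, 3.83, 0.64, 0 and 2.03 CPM in input (log2 fold change 4.48, SE 0.81, adjusted p = 0.00584). Its levels in input rest on few counts, with none in KO input 4. Gata2 stood at 288, 73.6, 43.9, 266 and 84.0 CPM in TRAP and at 10.7, 8.70, 18.6, 4.77 and 6.37 CPM in input (log2 fold change 4.01, SE 0.57, adjusted p = 0.000537). TRAP 1 and 4 stood over 3 times above the other TRAP libraries, which did not overlap input either.

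En1, a homeodomain factor of the midbrain and anterior hindbrain, was higher at 34.6 to 76.4 CPM (median 42.4) in TRAP against 4.13 to 21.3 CPM in input (log2 fold change 2.26, SE 0.52, adjusted p = 0.0429). Its call was the least firm of the 4. Of the 10 reductions by 1 library it held only in those without KO TRAP 2, KO TRAP 3 or KO input 3 (adjusted p = 0.132 without KO TRAP 4 and 0.116 without the library labelled KO TRAP 1), and it was lost under total counts (adjusted p = 0.0520). Gata3 and Nkx6-1 had all TRAP libraries above all input libraries but missed the threshold. Gata3 had a log2 fold change of 1.61 (SE 0.44, adjusted p = 0.106), and Nkx6-1, a factor of ventral progenitors, had 3.91 (SE 1.16, adjusted p = 0.135). The factors of early serotonergic development Nkx2-2 and Insm1 had log2 fold changes of −1.15 and 1.05, with adjusted p of 0.509 and 0.805. En2 and Pou3f1 had −0.31 and −0.85, with adjusted p of 0.929 and 0.683. DESeq2 called 6 of the 11 higher, and fitting KO and WT libraries together 5.

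No serotonin receptor passed the threshold in edgeR among the 10 tested (3 at an unadjusted p under 0.05, 1 in DESeq2), with a median log2 fold change of 0.86 and 7 of 10 above 0. Htr1a, the autoreceptor of serotonin neurons, stood at 134, 60.6, 55.1, 54.3 and 82.1 CPM in TRAP and at 29.7, 43.1, 26.9, 17.9 and 44.3 CPM in input. It was the only receptor whose groups did not overlap, with a log2 fold change of 1.25 (SE 0.40, adjusted p = 0.170). Htr1b, the receptor at axon terminals, had 1.58 (SE 0.65, adjusted p = 0.315), and TRAP was above input in all 5 pairs. Htr2a had the largest value, 1.71 (SE 0.77, adjusted p = 0.364), from 1.65 to 48.5 CPM in TRAP. Htr4, Htr5b, Htr1d and Htr5a had values from 0.59 to 1.42, Htr7 0.00, Htr2c −0.02 and Htr3a, the ion channel subunit, −0.85 (SE 1.28). The signs of Htr7, Htr2c and Htr3a turned with the libraries used.

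Within the CELF family 0 of 6 genes passed in edgeR (3 at an unadjusted p under 0.05, 2 in DESeq2). Celf6 stood at 113, 20.9, 55.7, 26.7 and 36.6 CPM in TRAP and at 14.7, 22.3, 16.8, 4.77 and 17.1 CPM in input on the scale of the 10 KO libraries (log2 fold change 1.70, SE 0.52, adjusted p = 0.145). TRAP 2 lay within input, and the highest TRAP value is that of the library labelled KO TRAP 1. Celf4, which is widely expressed in neurons, stood at 291, 154, 348, 531 and 608 CPM in TRAP and at 916, 894, 813, 618 and 782 CPM in input, without overlap (log2 fold change −1.16, SE 0.31, adjusted p = 0.0897). Celf2 had −0.81 (SE 0.31, adjusted p = 0.280), Celf3 and Celf5 0.21 each, and Celf1 0.07 with a sign that turned with the scaling.

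Several of the other strongly enriched transcripts lie beside serotonin genes. Cryba2, a crystallin, lies on the same strand as Fev on chromosome 1 (chr1:74889934-74893143), with 4525 bases between the start of Fev and the end of Cryba2. It stood at 57.2, 47.2, 51.0, 45.4 and 39.8 CPM in TRAP and at 1.5, 0.590, 1.07, 0.715 and 0 CPM in input (log2 fold change 5.96, SE 0.67, adjusted p = 4.05e-05), with the TRAP libraries close together. The transcript 1700042O10Rik lies within Ddc on the opposite strand (chr11:11868123-11885321), and since reads were counted without strand, its reads and those of Ddc cannot be told apart where exons overlap. It stood at 48.2, 53.7, 25.6, 8.77 and 24.8 CPM in TRAP and at 0 CPM in 4 of 5 input libraries, or 912 counts against 2, a ratio of 391 (95% exact interval 108 to 3240, for counting error only). Its adjusted p was 9.05e-05. C130021I20Rik, named after its values were seen, starts 681 bases from Lmx1b on the opposite strand and stood at 381, 275, 85.7, 188 and 112 CPM in TRAP and 5.33 to 27.2 CPM in input (log2 fold change 3.77, SE 0.53, adjusted p = 0.000485).

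C1qtnf2, a secreted protein with a C1q domain, stood at 35.0, 9.72, 1.77, 17.7 and 5.65 CPM in TRAP and was seen in input only with 1 count, in number 2. The pooled counts of 380 against 1 give a ratio of 326 (95% exact interval 58.2 to 12900), and the adjusted p was 0.00362. Fam169a stood at 666, 164, 1357, 910 and 1206 CPM in TRAP and at 33.6 to 66.7 CPM in input (log2 fold change 3.98, SE 0.44, adjusted p = 3.43e-05), with TRAP 2 the lowest of TRAP. Adra1b, the alpha-1B adrenergic receptor through which noradrenaline excites serotonin neurons, was the only 1 of 18 receptors for adrenaline, acetylcholine, dopamine and histamine to pass. It stood at 241, 198, 123, 189 and 205 CPM in TRAP and at 68.6, 19.0, 28.8, 39.3 and 33.3 CPM in input (log2 fold change 2.34, SE 0.36, adjusted p = 0.00154).

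Peptide genes divided. Of 15 neuropeptide precursors tested, 1 was higher, 1 lower, and the median log2 fold change was −0.85. With an unadjusted p under 0.05, 3 were higher and 6 lower, and DESeq2 called 2 higher and 5 lower. Trh, the precursor of thyrotropin-releasing hormone, which caudal raphe neurons make alongside serotonin, stood at 44.3, 19.8, 66.8, 27.8 and 69.7 CPM in TRAP and at 0.666, 1.18, 0.427, 1.91 and 8.69 CPM in input (log2 fold change 4.68, SE 0.76, adjusted p = 0.00202). Pnoc, the precursor of nociceptin, stood at 0.367, 0, 2.81, 0.747 and 1.08 CPM in TRAP and at 49.1, 13.4, 24.3, 18.1 and 28.4 CPM in input (log2 fold change −4.70, SE 0.92, adjusted p = 0.0110). Its call was lost without KO input 1 (adjusted p = 0.0638). Calca, the precursor of calcitonin gene-related peptide, and Penk, that of the enkephalins, had −3.23 (SE 1.06, adjusted p = 0.178) and −1.37 (SE 0.44, adjusted p = 0.168).

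Of 16 genes for granins and peptide processing, 3 were higher and 0 lower, while the median of the list was 0.15. With an unadjusted p under 0.05, 5 were higher and 3 lower, and DESeq2 called 4 higher and 0 lower. Scg2, a granin of dense-core vesicles, stood at 489, 396, 553, 572 and 1130 CPM in TRAP and at 110, 56.0, 201, 113 and 292 CPM in input (log2 fold change 2.01, SE 0.35, adjusted p = 0.00402). Number 5 was the highest in both. Pam, the enzyme that amidates peptides, stood at 75.5 to 143 CPM in TRAP and 14.8 to 35.0 CPM in input (log2 fold change 2.06, SE 0.39, adjusted p = 0.00821). Chgb, another granin, had 1.29 (SE 0.31, adjusted p = 0.0475) and lost the call under upper-quartile and total-count scaling and without any single library but KO TRAP 2 or KO input 3 (adjusted p = 0.151 without KO input 4). Erc2, a scaffold of the active zone, was the only 1 of 36 vesicle and release genes to pass (log2 fold change 1.15, SE 0.26, adjusted p = 0.0413). It too lost the call under both other scalings and without any single library but the one labelled KO TRAP 1, KO input 2 or KO TRAP 3 (adjusted p = 0.148 without KO input 5).

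Some of the remaining higher genes are imprinted or encode chromatin proteins, and those described here were chosen after their values were seen, so they are a description and no test of these groups. Peg10, a retrotransposon-derived gene expressed from the paternal allele, stood at 2697, 1593, 853, 2883 and 3100 CPM in TRAP and at 262, 226, 145, 165 and 228 CPM in input (log2 fold change 3.38, SE 0.33, adjusted p = 6.85e-06). Peg3, also paternally expressed, stood at 2582, 671, 1476, 3604 and 2727 CPM in TRAP and at 418, 237, 592, 785 and 614 CPM in input (log2 fold change 2.03, SE 0.33, adjusted p = 0.00198), and TRAP 2 lay within input. Asb4, 622869 bases from Peg10 on chromosome 6, had 1.98 (SE 0.39, adjusted p = 0.0108). Grb10, 32354 bases from Ddc, had 1.53 (SE 0.35, adjusted p = 0.0382) and lost the call without any single library but KO TRAP 2, KO TRAP 3 or KO input 3 (adjusted p = 0.106 without KO input 5). Igf2, imprinted and paternally expressed in most tissues, went the other way and was lower (log2 fold change −2.35, adjusted p = 0.000366).

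Among chromatin genes, Bcor, a corepressor of the Polycomb kind on the X chromosome, stood at 434, 261, 111, 418 and 304 CPM in TRAP and 16.2 to 47.9 CPM in input (log2 fold change 3.28, SE 0.39, adjusted p = 7.88e-05). Yeats2, a reader of acylated histones, stood at 658, 122, 220, 419 and 364 CPM in TRAP and 31.3 to 47.1 CPM in input (3.29, SE 0.39, adjusted p = 7.88e-05). For both genes the groups were far apart. Bahcc1, Cdyl2 and Kdm6b, a demethylase of histone H3, had log2 fold changes of 3.24, 2.51 and 1.91. Kmt2d, a methyltransferase of the same histone, went the other way, at 45 to 110 CPM in TRAP and 170 to 413 CPM in input (log2 fold change −2.13, SE 0.33, adjusted p = 0.00154). Ylpm1, a nuclear protein, stood at 3616, 860, 941, 2894 and 2106 CPM in TRAP and 90.8 to 184 CPM in input (3.82, SE 0.38, adjusted p = 7.18e-06), and ranked 152 per length in TRAP against 3625 in input.

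Other higher genes, also chosen after their values were seen, have roles in signalling and in monoamine neurons. Irs4, an insulin receptor substrate, had a log2 fold change of 2.91 (SE 0.34, adjusted p = 5.31e-05), Nr3c1, the glucocorticoid receptor, 2.47 (SE 0.40, adjusted p = 0.00186), and the transcriptional coactivator Cited1 3.60 (SE 0.50, adjusted p = 0.000424). Cited1 was even across TRAP, at 138 to 174 CPM, against 4.06 to 33.4 CPM in input. Pcdhac2, a clustered protocadherin needed for the spread of serotonin axons, stood at 72.3 to 379 CPM in TRAP and 13.1 to 24.7 CPM in input (3.29, SE 0.41, adjusted p = 0.000122). Dnajc12, a co-chaperone of the aromatic amino acid hydroxylases, had 2.91 (SE 0.43, adjusted p = 0.000801). Slc10a4, an orphan transporter of monoaminergic vesicles, had 3.11 (SE 0.61, adjusted p = 0.0108) and lost the call without KO input 4 (adjusted p = 0.0566). Drosha, which starts microRNA processing, stood at 827, 164, 761, 782 and 616 CPM in TRAP and 90.4 to 155 CPM in input (2.24, SE 0.36, adjusted p = 0.00186).

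Genes of oligodendrocytes and astrocytes were among those lower in TRAP. In the oligodendrocyte list 4 of 22 genes tested were lower and 0 higher, the median log2 fold change was −1.41 and 0 of 22 lay above 0. Mbp, the myelin basic protein, stood at 944, 896, 1777, 832 and 910 CPM in TRAP and at 4342, 3426, 5130, 4573 and 5210 CPM in input (log2 fold change −2.10, SE 0.25, adjusted p = 8.46e-05). TRAP 3 stood apart from the other TRAP libraries and still lay below every input library. Olig1, a factor of the oligodendrocyte lineage, stood at 64.9, 77.5, 114, 80.8 and 59.8 CPM in TRAP and at 344, 268, 289, 332 and 308 CPM in input (−1.96, SE 0.27, adjusted p = 0.000430). Bcas1 and Gpr17, marks of newly formed and of committed oligodendrocytes, had −1.75 (SE 0.35, adjusted p = 0.0133) and −1.67 (SE 0.37, adjusted p = 0.0310). The call of Bcas1 was lost without KO input 3, KO TRAP 4, KO input 4 or KO TRAP 5 (adjusted p = 0.0713 without KO TRAP 4), and that of Gpr17 without KO input 1, KO TRAP 2, KO input 3, KO TRAP 4, KO TRAP 5 or KO input 5 (adjusted p = 0.125 without KO TRAP 4).

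The summed CPM of the 22 oligodendrocyte genes was 2544 to 6762 in TRAP, with TRAP 3 the highest, and 7327 to 12441 in input. The list kept its sign in every alternative run, while its count of lower genes became 8 with the replicate block, 9 without KO TRAP 3, 2 without KO input 3, KO TRAP 4 or KO TRAP 5, and 5 without the library labelled KO TRAP 1. At an unadjusted p under 0.05, 18 of the 22 were lower. Sox8, a glial factor outside the list chosen after its values were seen, had −1.96 (SE 0.34, adjusted p = 0.00402), and Sirt2, a deacetylase abundant in oligodendrocytes and chosen in the same way, −1.54 (SE 0.28, adjusted p = 0.00651).

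In the astrocyte list 4 of 20 genes tested were lower, 0 higher, and the median was −1.09, with 2 of 20 above 0, up to 0.4. Fabp7, the fatty acid binding protein of radial glia and astrocytes, stood at 52.0, 215, 316, 112 and 98.8 CPM in TRAP and at 1231, 864, 551, 627 and 764 CPM in input (log2 fold change −2.40, SE 0.38, adjusted p = 0.00173). Number 1 was the lowest in TRAP and the highest in input. Apoe, the lipid carrier, stood at 12.5, 57.8, 72.9, 11.8 and 42.8 CPM in TRAP and at 256, 58.9, 280, 260 and 538 CPM in input (−2.76, SE 0.57, adjusted p = 0.0162). KO input 2 lay within TRAP, and the call was lost without KO input 3, KO TRAP 4 or KO TRAP 5 (adjusted p = 0.0762). Glul, glutamine synthetase, and Gfap, the filament of astrocytes, had −1.22 (SE 0.28, adjusted p = 0.0373) and −1.56 (SE 0.36, adjusted p = 0.0450). Both lost the call with the replicate block (adjusted p = 0.0614 and 0.0743) and without most single libraries (all but KO input 2 and KO TRAP 3 for Glul and all but KO TRAP 3 for Gfap, up to adjusted p = 0.141 and 0.147 without KO input 1). The list's count of lower genes was 2 without the library labelled KO TRAP 1, KO input 1, KO TRAP 2, KO input 4 or KO input 5, and 1 without KO input 3, KO TRAP 4 or KO TRAP 5.

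Slc6a11, the GABA transporter of astrocytes, was chosen after its values were seen and kept its call in every alternative run. It stood at 116, 111, 114, 162 and 189 CPM in TRAP and at 725, 285, 619, 468 and 959 CPM in input (log2 fold change −2.16, SE 0.30, adjusted p = 0.000401). TRAP was even while input varied. Dbi, the acyl-CoA binding protein that also acts on GABA receptors, had −2.09 (SE 0.27, adjusted p = 0.000204), and Nfia and Nfix, factors of glial differentiation, had −1.77 (SE 0.32, adjusted p = 0.00617) and −1.54 (SE 0.29, adjusted p = 0.00904), all 3 chosen in the same way. Nfix lost the call without KO input 1 (adjusted p = 0.0545).

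**Figure D3:**
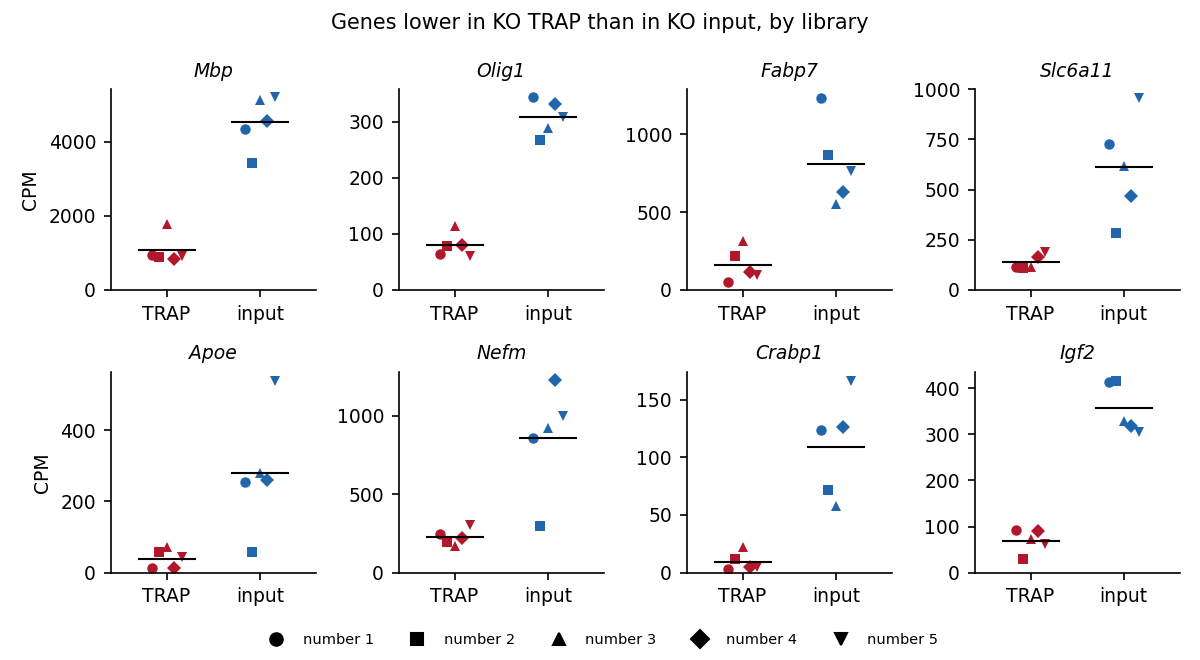
CPM (y, linear from 0) of 8 genes that were lower in KO TRAP, 1 panel per gene, with 1 point per library, red for TRAP and blue for input, the mark giving the library's number and the bar the mean. TRAP lies below input without overlap for all but Apoe and Nefm, where KO input 2 falls to the level of TRAP.

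Other cell types of the tissue gave few calls. Microglial genes had a median of −1.57 over 11 tested, with 0 past the threshold in edgeR (3 at an unadjusted p under 0.05 and 4 in DESeq2, all lower) and 1 of 11 above 0. P2ry12, the purinergic receptor of resting microglia, had the smallest p of them (log2 fold change −4.42, SE 1.20, adjusted p = 0.0988), at 0 to 2.43 CPM in TRAP and 5.79 to 20 CPM in input. The summed CPM of the list was 58.4 to 97.4 in TRAP and 117 to 227 in input. Fibroblast and meningeal genes had the lowest median of the lists, −1.87 over 11 tested, with 1 of 11 above 0 and 1 lower. The lower gene is Igf2, the insulin-like growth factor, at 92.4, 28.8, 73.9, 90.0 and 62.5 CPM in TRAP and 413, 416, 329, 318 and 305 CPM in input (log2 fold change −2.35, SE 0.32, adjusted p = 0.000366). The replicate block gave 3 lower genes in this list, among them Ptgds, the prostaglandin D synthase of the meninges (−1.87, SE 0.63, adjusted p = 0.194, and 0.0135 with the block). Genes of endothelial and mural cells had a median of −0.73 over 13 tested and 0 calls in edgeR, at an unadjusted p under 0.05 and in DESeq2. Of these 13, 2 lay above 0. The blood list had 0 genes tested.

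Ttr, the main message of the choroid plexus, varied widely between brains in both kinds of RNA. It stood at 109, 101, 3.70, 253 and 0.269 CPM in TRAP and at 1704, 619, 11.7, 2313 and 6.08 CPM in input. The numbers that were low in input (3 and 5) were low in TRAP, and TRAP was below input in all 5 pairs. The log2 fold change was −3.35 (SE 1.25, adjusted p = 0.254), and −3.01 with the replicate block (adjusted p = 0.000145). All 16 genes of the ependymal and choroid plexus list, tested or not, summed to 153 to 443 CPM in TRAP and 263 to 2691 in input. Of the 8 tested, 0 passed in edgeR and 2 lay above 0, up to a log2 fold change of 1.83, with a median of −0.61. The mean log2 CPM of these 8 was lower in TRAP for numbers 1, 2 and 4. It was higher in TRAP for numbers 3 (2.71 against 2.4) and 5 (2.95 against 1.74).

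Markers of other neurons had medians below 0, but none passed in edgeR. The GABA and glycine list had a median of −0.95 over 10 tested with 0 of 10 above 0, the glutamate list −0.98 over 12, and the dopamine and noradrenaline list −1 over 9 (−2.16 without KO TRAP 3). Lower at an unadjusted p under 0.05 were 3 genes of each list, and DESeq2 called 1, 3 and 3 of them lower. Some members went the other way. In the glutamate list 3 of 12 lay above 0, up to a log2 fold change of 2.13, with 1 higher at an unadjusted p under 0.05. In the dopamine and noradrenaline list 1 of 9 lay above 0. Pax2, a factor of inhibitory hindbrain neurons, had −2.12 (SE 0.51, adjusted p = 0.0525), and Zic1 and Camk2a of the glutamate list had −1.38 (SE 0.34, adjusted p = 0.0561) and −1.12 (SE 0.30, adjusted p = 0.0924). In each of these 3 genes all TRAP libraries lay below all input libraries. Th, the rate-limiting enzyme of catecholamine synthesis, had −1.18 (SE 0.81, adjusted p = 0.596), at 20.2, 2.71, 6.36, 3.55 and 3.77 CPM in TRAP, the highest in the library labelled KO TRAP 1, and 7.89 to 25.5 CPM in input. Phox2a, a factor of noradrenaline neurons, was at 0 CPM in 4 of 5 TRAP libraries and 1.5 to 16.6 CPM in input (adjusted p = 0.143), and Aldh1a1 of dopamine neurons had −2.96 (SE 0.84, adjusted p = 0.117).

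Hox genes, which mark the hindbrain and spinal cord levels of the axis, had a median of −1.5 over 14 tested with 1 of 14 above 0 and 0 past the threshold in edgeR, where 6 were lower at an unadjusted p under 0.05. The summed CPM of all 39 listed Hox genes, tested or not, was 199 to 413 in TRAP and 402 to 751 in input. Hoxb5 had −1.70 (SE 0.46, adjusted p = 0.0948), with TRAP 3 at 141 CPM above KO input 3 at 128 CPM. Hoxa5 had −1.62 (SE 0.46, adjusted p = 0.116, and 0.0418 with the replicate block). DESeq2 called 5 of the 14 lower. The part of cell types and of the axial level of the dissection in these values was not tested.

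**Figure D4:**
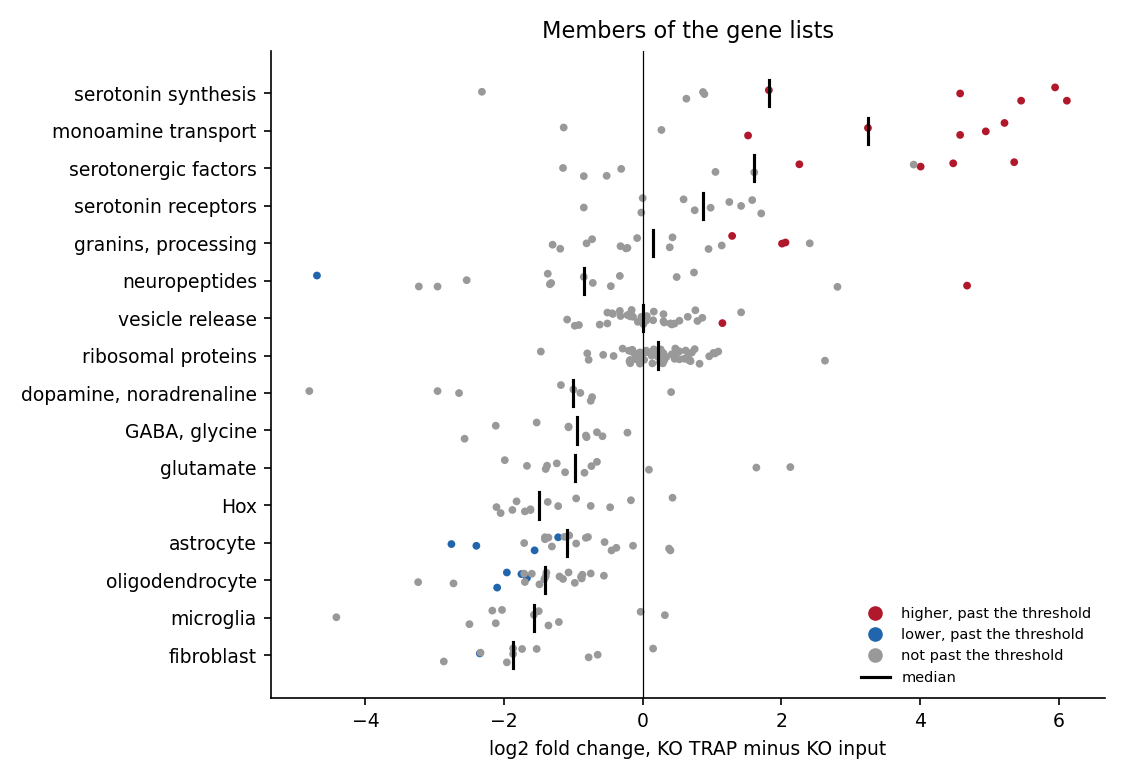
Log2 fold change of KO TRAP minus KO input (x) for each tested member of 16 gene lists (y), with red and blue for members past the threshold, grey for the others and a bar at the list's median. The serotonin synthesis, monoamine transport and serotonergic factor lists reach above 5, and the serotonin receptors reach 1.71. The synthesis list also reaches down to −2.32. All members of the oligodendrocyte list and of the GABA and glycine list lie below 0.

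Among structural and RNA-binding genes of neurons single members were lower. Nefm, the medium neurofilament, stood at 245, 194, 168, 224 and 303 CPM in TRAP and at 858, 296, 922, 1227 and 997 CPM in input (log2 fold change −1.90, SE 0.30, adjusted p = 0.00173). KO input 2 lay within TRAP. Map1a, a microtubule protein of dendrites, had −1.24 (SE 0.28, adjusted p = 0.0314), lost without KO input 1, KO input 3, KO TRAP 4, KO input 4, KO TRAP 5 or KO input 5 (adjusted p = 0.148 without KO TRAP 4). These were the 2 lower genes of 26 for neurofilaments, microtubules and axons, whose median was 0.13. Elavl3, an RNA-binding protein of young neurons, was the only 1 of 29 RNA-binding and splicing regulators to pass, at 95.7, 21.7, 198, 219 and 168 CPM in TRAP and 398 to 505 CPM in input (−1.77, SE 0.41, adjusted p = 0.0458), and lost the call without any single library but KO TRAP 2 or KO TRAP 3 (adjusted p = 0.109 without the library labelled KO TRAP 1). Kcnip3, a calcium sensor that binds potassium channels and DNA, was the only 1 of 65 potassium channel genes to pass. It stood at 92.2, 70, 60, 70 and 83.5 CPM in TRAP and at 502, 152, 269, 263 and 206 CPM in input (−1.88, SE 0.32, adjusted p = 0.00363), while that list's count was 2 with the replicate block or without the library labelled KO TRAP 1.

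Among the lower genes, Tnfrsf1a, Foxr2 and Cyp11a1 had the largest negative fold changes, and these genes and Rest were of low level in both kinds of RNA. Pnoc (−4.70) and the transcript 2210016F16Rik (−4.53) came near Rest (−4.65) at higher mean levels in input, 26.7 and 27.4 CPM. Tnfrsf1a, the main receptor of tumour necrosis factor, stood at 0 CPM in 4 of 5 TRAP libraries and at 13.0, 7.08, 22.4, 2.86 and 4.35 CPM in input, or 1 count against 258, a ratio of 301 (95% exact interval 53.5 to 11900; adjusted p = 0.00402). Foxr2, a forkhead factor on the X chromosome, had 1 count in TRAP and 192 in input (ratio 224, interval 39.7 to 8880; adjusted p = 0.0285, and 0.0543 with the replicate block). Cyp11a1, the first enzyme of steroid synthesis, had 5 and 265 counts (ratio 61.8, interval 26.1 to 192; adjusted p = 0.0354, and 0.0570 with the block). Rest, the repressor of neuronal genes in other cells, had 14 and 233 counts (ratio 19.4, interval 11.3 to 36.0; adjusted p = 0.0476, and 0.0831 with the block). Tnfrsf1a kept its call without any single library, whereas Rest lost it without each of the 10, Cyp11a1 without all but the one labelled KO TRAP 1 and KO input 2 (adjusted p = 0.155 without KO input 1) and Foxr2 without any 1 TRAP library, KO input 3 or KO input 4 (adjusted p = 0.0954 without KO TRAP 5). Foxr2 passed without KO input 5 (adjusted p = 0.047) and was not tested without KO input 1 or KO input 2.

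Crabp1, a carrier of retinoic acid, was strongly lower at a higher level and kept its call without any single library. It stood at 2.93, 11.8, 21.9, 4.48 and 4.58 CPM in TRAP and at 124, 71.8, 57.6, 126 and 166 CPM in input (log2 fold change −3.62, SE 0.57, adjusted p = 0.00173). TRAP 3 was the highest of TRAP and number 3 the lowest of input. Id3, an inhibitor of differentiation factors, had −2.58 (SE 0.54, adjusted p = 0.0208), lost without KO input 1, KO TRAP 2, KO TRAP 4 or KO input 5 (adjusted p = 0.120 without KO input 1). Zbtb7a, a transcriptional repressor, had −2.37 (SE 0.42, adjusted p = 0.00423) and kept its call without any single library. Sall3, a zinc finger factor, Ngef, an exchange factor downstream of ephrin receptors, and Ndufaf2, an assembly factor of respiratory complex I, had −2.30, −2.24 and −2.73, with adjusted p of 0.0183, 0.0164 and 0.0320. Sall3 and Ngef lost their calls without KO input 1, KO TRAP 4, KO TRAP 5 or KO input 5, and Ngef also without KO input 2 (up to adjusted p = 0.101 and 0.0945). Ndufaf2 lost it without any single library but the one labelled KO TRAP 1 or KO input 3 (up to adjusted p = 0.185). The unnamed transcript 2210016F16Rik had −4.53 (SE 0.88, adjusted p = 0.0107, and 0.0648 without KO input 1).

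Genes of the translation and energy machinery gave no calls in edgeR over all libraries. DESeq2 called 1 higher of 60 translation initiation and elongation factors and 1 lower of 75 mitochondrial ribosomal proteins, and without KO TRAP 1 edgeR called 1 higher translation factor. Cytosolic ribosomal proteins had a median of 0.22 over 69 tested, and nuclear genes of oxidative phosphorylation −0.23 over 75. Above 0 lay 45 of the 69 and 10 of the 75. At an unadjusted p under 0.05 were 3 and 5 genes, where all genes tested had 12.6%. Taken within each run as differences of mean log2 CPM, not as fits, both medians turned sign. They were 0.53 in run 1 and −0.32 in run 2 for the ribosomal proteins. For oxidative phosphorylation they were 0.12 and −0.78, so no direction is given for either list. Rpl10a, the protein that carries the tag in TRAP lines, had a log2 fold change of 0.53 (SE 0.63, adjusted p = 0.799), at 7.70 to 31.0 CPM in TRAP and 9.30 to 12.2 CPM in input. Xist followed the libraries described above, with a log2 fold change of 1.45 (SE 1.24, adjusted p = 0.696).

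Whether loss of Celf6 altered this enrichment was tested by setting the TRAP to input difference of KO against that of WT. No gene passed (0 of 14261 in edgeR, with 554 or 3.88% at an unadjusted p under 0.05), and DESeq2 called 4. In simulated data this test found 2%, 27.1%, 61.2% and 70.2% of genes whose differences were 2-, 4-, 8- and 16-fold, so moderate differences would mostly be missed. Tph2 had a log2 fold change of 5.95 in KO and 5.83 in WT, a difference of 0.12 (95% interval −0.99 to 1.23). The differences were −0.38 for Slc6a4 (−1.36 to 0.61), −0.39 for Fev (−1.58 to 0.81), 0.03 for Ddc (−0.96 to 1.01) and 0.51 for Gch1 (−0.64 to 1.66). Mbp and Olig1 differed by −0.11 (−1.01 to 0.80) and −0.22 (−1.14 to 0.70).

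The 124 genes moved the same way in WT with 1 exception. All 79 higher genes were above 0 in WT, 40 of them past the threshold there, where 51.7% of all genes were above 0 and 0.666% past the threshold in either direction. Of the 45 lower genes 44 were below 0 in WT and 17 past the threshold, and the exception was Foxr2. The KO and WT values share no library but were fitted together, which gives KO medians of 2.15 for the higher and −1.90 for the lower genes and WT medians of 1.71 and −1.37. Since the genes were chosen for passing in KO, these medians are given without a test.

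**Figure D5:**
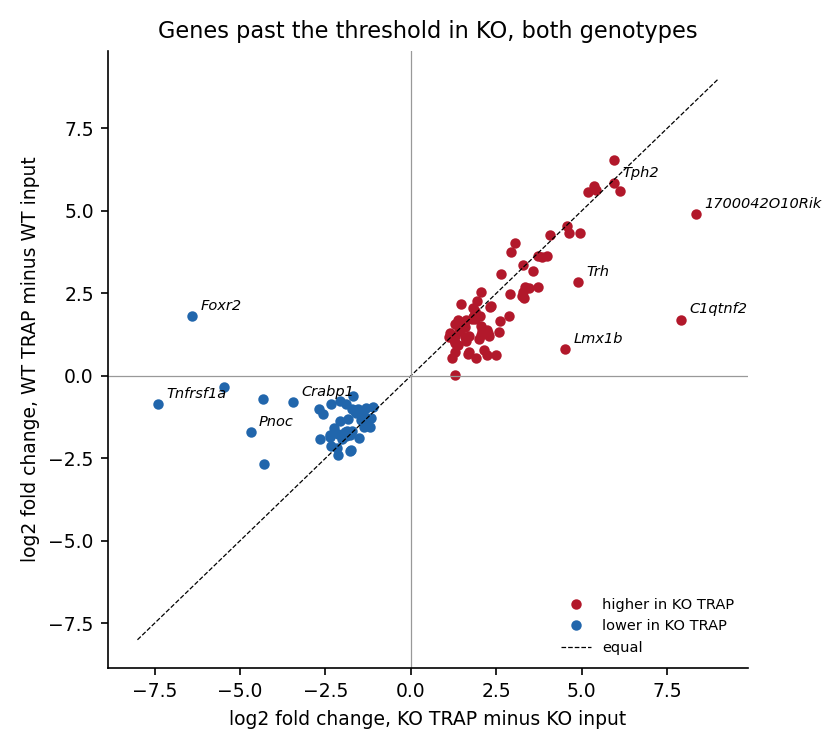
Log2 fold change of TRAP minus input in WT (y) against that in KO (x) for the 124 genes past the threshold in KO, from the fit of both genotypes, red for higher and blue for lower, with a dashed line where both are equal. Tph2 lies on the line, while Lmx1b, Trh, C1qtnf2, Tnfrsf1a and Foxr2 lie away from it without passing the test of the difference.

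Several of the largest gaps between the genotypes among these genes rested on low counts or wide errors. Lmx1b had 4.51 in KO and 0.80 in WT (difference 3.70, SE 1.6, unadjusted p = 0.0291, adjusted p = 1 for this and each gene below). Trh had 4.90 and 2.84 (difference 2.06, SE 0.99, unadjusted p = 0.0471), and C1qtnf2 7.90 and 1.70 (difference 6.20, SE 1.84, unadjusted p = 0.00237). Among the lower genes, Crabp1 had −3.46 and −0.80 (difference −2.67, SE 0.97, unadjusted p = 0.0106), and its level in KO input was not low, at 57.6 to 166 CPM. Tnfrsf1a had −7.40 and −0.85, and Foxr2 −6.39 and 1.81. Over all genes the smallest p for a more negative value in KO belonged to Mfsd11 (difference −4.39), Inpp5d (−9.19), Commd7 (−2.26), Gsg1l (−1.84) and Adh7 (−12.4). Those for a more positive value in KO belonged to Nron (13.55), Ica1 (2.20), Sh2d4b (9.82), Tha1 (7.89) and Zfp597 (2.44).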

How the data were processed

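The authors deposited 1 table of read counts per gene for each library, in whole numbers. They were made over exons with featureCounts 1.4.6-p5 per the file headers, which name no option for strand or multi-mapping reads and an mm10 annotation. Trimmomatic, STAR and Subread are named without versions in the submitters' processing notes. Per the labels' protocols, cDNA came from Nugen Ovation 2 amplification and libraries from NEBNext Ultra. Tables of splicing values were not used here.

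Libraries were grouped as labelled. Numbers 1 to 3 were sequenced in run 1 and 4 and 5 in run 2. The 10 KO libraries went into 1 quasi-likelihood fit of edgeR 4.0.16 under R 4.3.3, after filterByExpr and TMM scaling, with the run as covariate. CPM are TMM-normalized, with a prior count of 2 in log2 CPM. The genotype comparison used 18 libraries. WT input 2 and 3 (r = 0.993, other WT input pairs 0.797 to 0.852) were summed as 1 sample, and WT input 4 was not used. DESeq2 1.42.0, other scalings, no filter, each run alone, the repeat run of number 3 and leaving out each library were alternatives. Equal numbers are taken as 1 brain from the series notes, which give 5 KO brains for 10 KO libraries. In residual levels, TRAP and input of equal number had r of −0.04 to 0.081, and 1 of 5 was closest to its own number. The fit was tested on simulated data with known changes (11913 genes for KO, 13910 for the genotype difference). Exact counting intervals cover counting error only.

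Members and lists were chosen with earlier results of these data known. Named by rule were the 15 largest changes in each direction with at least 5 CPM in the higher group, all tested members of the serotonin and CELF lists, genes among the 4 smallest p of the other lists, the 5 smallest p in each direction for the genotype difference, and Celf6, Rpl10a, Xist, Cryba2, Ptgds and Ttr. Cd68 was not tested. Some genes that the rule names are not reported here. Of the lists, those without a value in the text had 0 genes past the threshold.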

Additional observations from a re-analysis of the deposited data

Results flagged for a closer look

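In 20 of 265 groups of 5 libraries, 1 library lay far from the other 4. Its gap over the group's range, both taken on log2 values, was above Dixon's 95% critical value of 0.71. The values printed below are not in log2. The groups were the genes named here and the total counts, with TRAP and input apart. They also held the summed CPM of the synthesis, astrocyte, oligodendrocyte, microglial, choroid plexus and cytosolic ribosomal protein lists. Chance alone flags about 1 in 20 groups of continuous values. Where 1 library alone holds reads, the gap equals the range, so such a group is flagged in any case. Of the 20, 8 were in TRAP and 12 in input.

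Among serotonin and CELF genes, Celf6 in KO input 4 was at 4.77 CPM against 14.7 to 22.3 in the others, and Maoa in KO TRAP 3 was at 173 CPM against 299 to 370. Aldh2 in KO input 2 was at 8.70 CPM against 20 to 23.3, and Htr4 in KO input 5 was at 0 CPM against 7.04 to 19.0.

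Among glial and structural genes, Mbp in KO TRAP 3 was at 1777 CPM against 832 to 944 and Glul in KO input 2 at 163 CPM against 337 to 374. Nefm in KO input 2 was at 296 CPM against 858 to 1227. Drosha was low in KO TRAP 2, at 164 CPM against 616 to 827, and in KO input 5, at 90.4 CPM against 133 to 155. Ica1 in KO input 5 was at 11.9 CPM against 37.3 to 40.7.

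At low counts, 1 library alone held reads where the other 4 were at 0 for 1700042O10Rik (KO input 3, 0.427 CPM), C1qtnf2 (KO input 2, 0.147 CPM), Tnfrsf1a (KO TRAP 3, 0.148 CPM), Foxr2 (KO TRAP 4, 0.187 CPM), Phox2a (KO TRAP 3, 1.77 CPM) and Sh2d4b (KO input 2, 0.147 CPM). Adh7 in KO input 5 was at 4.63 CPM against 0 to 0.295, Nron in KO TRAP 2 at 108 CPM against 0 to 0.538, and Tha1 in KO input 2 at 2.95 CPM against 0.290 to 0.666. The total count of KO TRAP 5 was 3937187 against 5663306 to 6521489 in the other TRAP libraries.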

How the results depend on the processing

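The count of 124 genes became 595 in DESeq2 (260 higher, 335 lower), 354 with no expression filter (184 and 170), 24 in run 1 alone (22 and 2) and 215 in run 2 alone (161 and 54), where run 1 has 3 and run 2 has 2 libraries a group. All 124 were among the calls of DESeq2 and of the unfiltered fit, and 0 of the 124 changed sign in any alternative run. Leaving out 1 library gave 84 to 189 genes in all, 57 to 99 higher and 22 to 90 lower. The 45 lower genes became 68 with the replicate block, 70 with KO and WT libraries in 1 fit and 73 with number 3 from its repeat run. The block changed the call of no other named gene than those printed with it above. Through every alternative 19 genes kept their call, among them Fev, Cryba2, Tph2, Ddc, Slc6a4, Gch1, Gchfr, Slc18a2, Peg10, Slc6a11 and Igf2. The genotype difference had 0 genes past the threshold, 4 in DESeq2 (Inpp5d and Mfsd11 among them) and 3 with no filter. The Celf6 level in TRAP over input (log2 1.70) passed in DESeq2 (1.70, adjusted p = 0.0226). Of the list medians of fitted log2 fold changes under each alternative, 756 moved by less than the SD between pairs and 21 by more. They were taken over the genes tested in the comparison as reported. Among the 21, microglial genes (−1.57) had −0.93 in run 1 and −2.55 in run 2, dopamine and noradrenaline genes −1.80 in run 2, oligodendrocyte genes −1.85 in run 2, neuropeptide precursors (−0.85) −1.58 with the repeat run and −1.35 without KO TRAP 3, and endothelial genes −0.27 without KO input 3 and −1.16 without KO input 5. Upper-quartile scaling moved the median of all genes from 0.02 to −0.05 and total counts to −0.07.

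Signs turned for 10 named genes, none past the threshold. Celf1 (0.07) became −0.01 under upper-quartile scaling, −0.05 under total counts, −0.14 with the block, −0.11 in run 1, and −0.42 to 0.33 with 1 library left out. In run 2, Celf2 became 0.01, Slc29a4 −0.56 and Insm1 −2.02, and in run 1 Commd7 became 0.06. Without the run covariate, with WT libraries in the fit, with the repeat run and in run 1, Htr2c (−0.02) became 0.05, 0.08, 0.04 and 0.20 and Htr7 (0.00) became 0.07, 0.10, 0.08 and 0.44. With 1 library left out, Htr2c ran from −0.30 to 0.28, Htr7 from −0.37 to 0.22, Htr3a from −2.43 to 0.27, En2 from −1.11 to 0.00 and Xist from −0.20 to 1.93. The causes were not tested.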

Other observations

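The X chromosome held 8 of the 79 genes higher in TRAP (10.1%) and 441 of the 12273 genes tested (3.59%), among them Maoa, Maob, Bcor, Irs4 and Cited1, and 1 of the 45 lower genes, Foxr2. The higher genes had a median exon length of 3285 bases and the lower genes of 3568, against 3121 over all genes tested. Per length, Fabp7 ranked 12 in input (1060 RPKM) and 248 in TRAP (209 RPKM), Dbi 32 and 284, Mbp 43 and 377, and Sirt2 85 and 404. Peg10 and Peg3 went the other way, from ranks 2507 and 820 in input to 126 and 125 in TRAP, at 334 RPKM each.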
